A study of Mus musculus with 12 samples.

Results

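The livers of high-fat-fed mice without Ahnak were set against the livers of chow-fed wild-type mice, gene by gene, to see which of their genes departed from the chow-fed wild-type level and which lay close to it. The arrays were taken by their labels: 3 from Ahnak-deficient mice on the high-fat diet (KO HFD) and 3 from wild-type mice on chow (WT chow), together 6 of the 12 arrays of the study. All mice were C57BL/6 males, kept in weight-matched groups for 8 weeks on their diet, and total liver RNA of 1 mouse was hybridised to each array. The high-fat diet (HFD) held 60% fat, and chow is the standard cereal-based laboratory feed. Ahnak encodes a very large scaffold protein found beneath the cell membrane and in the nucleus. The other 6 arrays, 3 of Ahnak-deficient mice on chow (KO chow) and 3 of wild-type mice on the HFD (WT HFD), entered the fit and are given where they place a gene. Genotype and diet both differ between KO HFD and WT chow, so within this comparison their parts cannot be told apart.

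The liver clears foreign compounds and steroids through cytochrome P450 enzymes of the CYP2 and CYP3 families, carboxylesterases, and transferases that attach glutathione or glucuronic acid. In mice many of these enzymes also differ between the sexes, because the pulses in which males secrete growth hormone act on the hepatocyte through the transcription factor STAT5. Excess dietary fat in wild-type mice is known to raise lipid droplet, inflammatory and matrix genes in liver. These are the programmes by which the results are ordered.

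Levels are log2 signals as deposited, so that a difference of 1 is a doubling. A gene's level is not compared with that of another gene, except that Xist, which male liver does not make, marks low signal. It is a rough guide, since background can differ between probe sets. A gene was called higher or lower when its adjusted p in limma, a linear model fitted to all 22180 genes with 1 symbol on the 12 arrays, was under 0.05 after Benjamini-Hochberg adjustment. Since a gene that is not called may still differ, a level was described as close to WT chow only where the 95% interval of KO HFD minus WT chow lay wholly within 0.5 log2 units on either side of 0. P-values and SEs rest on the spread between mice within groups, pooled over all 4 groups of 3 and drawn towards that of other genes. They do not measure the spread of the compared groups alone. In RNA from whole liver, fewer cells of a type and less RNA per cell cannot be told apart.

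The labels were checked first. Ahnak itself read 6.46, 6.52 and 6.62 on the KO HFD arrays, against 6.50, 6.83 and 6.58 on the WT chow arrays. These overlap, and since the sources used here do not give which part of the gene was removed, the probe set checks nothing. Hepatocyte markers such as Alb, which encodes serum albumin, lay close to WT chow in 14 of 16 cases, with list means of 12.2 to 12.4 on the KO HFD arrays and 12.2 to 12.3 on the WT chow arrays. Correlations between arrays of a group were 0.992 to 0.994 across genes. Principal component 1 carried 32.2% of the variance over all genes, and there the KO HFD arrays lay at -18.5 to -14.4 and the WT chow arrays at -10.5 to -4.46, while the WT HFD arrays lay apart at 30.0 to 32.3. On component 2, with 11% of the variance, the KO HFD arrays (10.2 to 18.2) stood above every WT chow array (-16.0 to -3.61).

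Of the 22180 genes, 71 were called between KO HFD and WT chow (0.32%), 18 of them higher (0.0812%) and 53 lower (0.239%), by limma with Benjamini-Hochberg adjustment. At an unadjusted p under 0.05 there were 1998 of the 22180, beside which the list counts at that threshold stand. In all 71 the 3 KO HFD arrays lay wholly above or below the 3 WT chow arrays, which was so for 12.2% of all genes. Of the 71 genes, 26 differed by at least 2-fold, 8 higher and 18 lower. The interval lay within 0.5 of 0 for 16923 genes (76.3%), none of the 71 among them, and 5186 genes were neither called nor shown to be close. The other comparisons use some of the same arrays and are given by their own counts. For KO HFD minus WT HFD 862 genes were called higher (3.89%) and 1469 lower (6.62%), for WT HFD minus WT chow 891 were higher (4.02%) and 652 lower (2.94%), for KO HFD minus KO chow 54 were called (0.243%), and for KO chow minus WT chow 2 (0.00902%). The root mean square log2 difference over all genes was 0.20 for KO HFD minus WT chow, 0.33 for KO HFD minus WT HFD and 0.29 for WT HFD minus WT chow.

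The calls rest on few arrays. With 1 array left out at a time, 20 of the 71 calls, 5 higher and 15 lower, were made in all 12 fits. The sign of a call could not change in these fits, since the compared arrays of all 71 genes did not overlap. The count of higher genes ran from 6, without KO HFD replicate 3, to 18, and that of lower genes from 22, without WT chow replicate 3, to 58. With the 3 WT HFD arrays out of the fit, an alternative chosen after seeing the data, 6 genes were higher and 22 lower.

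**Figure D1:**
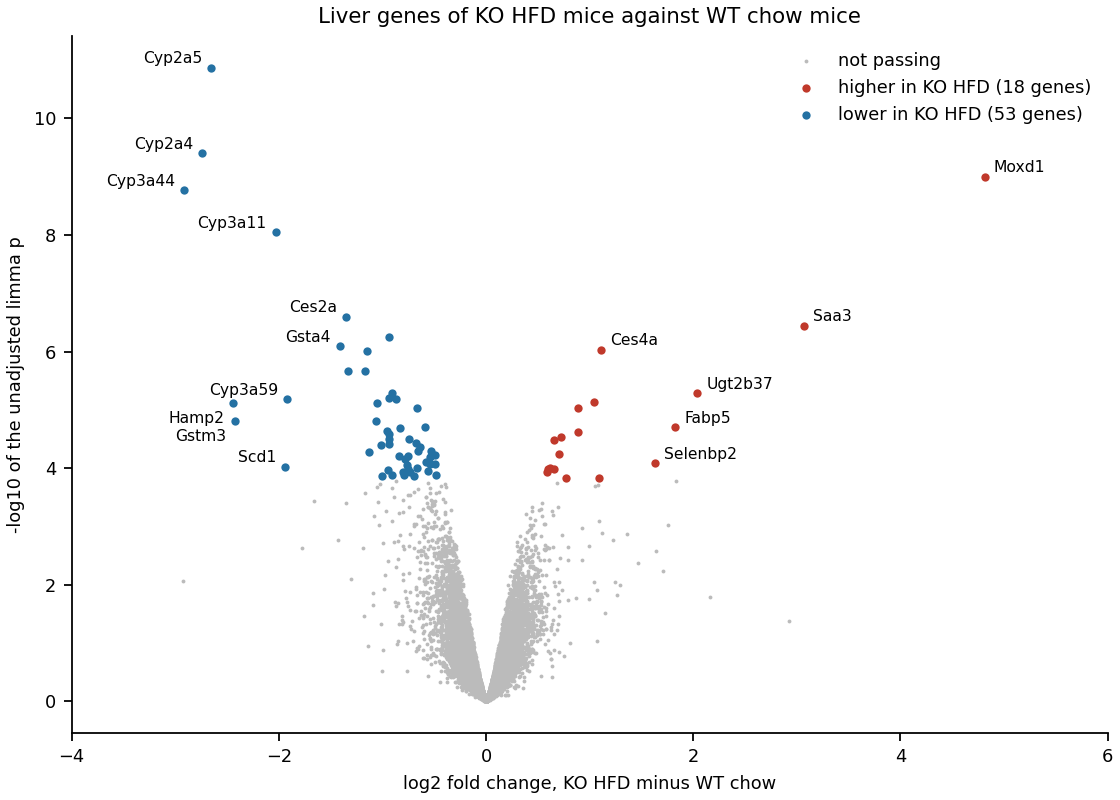
Each point is 1 of 22180 genes, with the log2 fold change of KO HFD minus WT chow on the horizontal axis and the -log10 of the unadjusted limma p on the vertical axis; the 18 genes called higher are red, the 53 called lower blue, the others grey. Moxd1 at 4.81 lies far to the right, and cytochrome P450 genes form the upper left arm.

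Promoter sequences are shown for 6 genes that carry the results below, from RefSeq (GRCm38.p6), each running from 250 bases before to 50 bases after the annotated start, on the gene's own strand. Of the 71 called genes, 55 had such a window. Moxd1, the largest rise, and Hamp2, one of the largest falls, are genes with sex-biased expression, and the capitals in their windows mark the STAT5 motif TTCNNNGAA, searched on both strands. It starts at position -150 from the start in Moxd1 (chr10:24223267-24223566, plus strand) and at -94 in Hamp2 (chr7:30924132-30924431, minus strand). The motif was in a window of 5 of the 55 called genes (9.09%), against 8.3% of all 32851 windows. The first share counts genes, which may have several windows, and the second counts windows, so they are not like for like. The others of the 5 were Gm2a, Gstm6 and Olfr919, which are in neither of the sex-biased lists used below. The called sex-biased genes Cyp3a44, Cyp2a4 and Selenbp2 had no match or no window.

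Moxd1: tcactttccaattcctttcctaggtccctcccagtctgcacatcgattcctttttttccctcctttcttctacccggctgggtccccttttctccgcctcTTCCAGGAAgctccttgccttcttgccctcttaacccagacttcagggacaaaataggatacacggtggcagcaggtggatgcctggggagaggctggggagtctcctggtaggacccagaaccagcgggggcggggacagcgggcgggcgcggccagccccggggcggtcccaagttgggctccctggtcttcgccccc
Hamp2: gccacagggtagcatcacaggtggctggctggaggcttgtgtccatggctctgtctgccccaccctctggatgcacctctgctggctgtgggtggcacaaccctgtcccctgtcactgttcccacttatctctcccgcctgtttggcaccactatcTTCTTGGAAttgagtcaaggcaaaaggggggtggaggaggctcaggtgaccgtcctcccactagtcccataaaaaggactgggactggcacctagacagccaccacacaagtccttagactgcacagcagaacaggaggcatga

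The windows of Cyp2a4 (chr7:26306942-26307241, plus strand) and Cyp2a5 (chr7:26835089-26835388, plus strand), the lower genes with the smallest p-values, are shown because the genes are near copies. Aligned, the windows were identical at 294 of 301 positions (97.7%), and neither held any of the 5 motifs searched, so no base is in capitals. Probe sets of such close relatives may read each other's RNA, and their separate values are uncertain in that respect, as are those within the Cyp3a, Ces1 and Gstm clusters.

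Cyp2a4: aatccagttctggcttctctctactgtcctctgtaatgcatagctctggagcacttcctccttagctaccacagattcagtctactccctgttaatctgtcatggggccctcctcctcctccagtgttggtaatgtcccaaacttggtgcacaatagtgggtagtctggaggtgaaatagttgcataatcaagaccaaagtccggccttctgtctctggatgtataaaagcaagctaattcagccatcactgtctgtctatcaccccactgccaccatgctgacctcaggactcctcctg
Cyp2a5: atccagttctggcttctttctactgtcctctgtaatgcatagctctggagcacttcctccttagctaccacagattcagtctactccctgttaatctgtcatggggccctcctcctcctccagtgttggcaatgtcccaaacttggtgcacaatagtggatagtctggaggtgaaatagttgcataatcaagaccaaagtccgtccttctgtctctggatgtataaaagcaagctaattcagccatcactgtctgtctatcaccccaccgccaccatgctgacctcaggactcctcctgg

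Ces1b (chr8:93079891-93080190, minus strand) and Ces1e (chr8:93229570-93229869, minus strand), a pair of lower carboxylesterase genes, each held the D-box TTATGTAA, the site of the PAR bZIP family of clock output factors, in capitals and starting at -84 in Ces1b, of which the first listed window is shown, and at -81 in Ces1e. These were the 2 called genes with it out of 55 (3.64%), against 0.938% of all windows. As relatives in the Ces1 cluster they are not independent matches, and the other lower Ces genes, Ces2a, Ces1d and Ces2e, were not among the matches. Here and for the motifs that follow, a share of genes again stands against a share of windows. The E-box CACGTG was in 5 of the 55 (9.09%, against 7.15%), the ROR element GGGTCA in 8 (14.5%, against 13.7%), and the PPAR element, AGGTCA repeated after any 1 base, in none, against 0.0396%. A match of letters is not a binding site.

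Ces1b: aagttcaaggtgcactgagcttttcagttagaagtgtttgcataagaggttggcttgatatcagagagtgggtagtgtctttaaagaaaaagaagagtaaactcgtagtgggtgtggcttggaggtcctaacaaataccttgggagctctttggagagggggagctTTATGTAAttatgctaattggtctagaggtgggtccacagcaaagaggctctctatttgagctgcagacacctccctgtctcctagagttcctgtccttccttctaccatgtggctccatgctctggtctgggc
Ces1e: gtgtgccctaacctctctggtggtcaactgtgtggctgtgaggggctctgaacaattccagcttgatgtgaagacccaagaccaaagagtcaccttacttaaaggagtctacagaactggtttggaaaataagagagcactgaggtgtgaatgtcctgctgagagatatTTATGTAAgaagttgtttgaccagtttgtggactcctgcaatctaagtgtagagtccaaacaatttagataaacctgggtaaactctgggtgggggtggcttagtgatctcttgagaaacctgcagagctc

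Cytochrome P450 genes of the CYP2A and CYP3A families were among the largest falls. Cyp2a5, which encodes the coumarin hydroxylase of mouse liver, read 5.85, 5.65 and 5.88 on the KO HFD arrays, against 8.27, 8.64 and 8.44 on the WT chow arrays. It fell by 2.66 ± 0.11 log2 units (SE, n = 3 each; limma adjusted p = 2.99e-07). Cyp2a4, which encodes a testosterone 15-alpha-hydroxylase, read 7.38, 7.06 and 7.43, against 10.15, 10.05 and 9.90 in WT chow, a fall of 2.74 ± 0.15 (adjusted p = 4.41e-06). No KO HFD array came within 2 log2 units of a WT chow array for either gene. WT HFD minus WT chow was 0.52 for Cyp2a5 (adjusted p = 0.0149) and 0.49 for Cyp2a4 (adjusted p = 0.0784). KO HFD minus WT HFD was -3.17 for Cyp2a5 (adjusted p = 3.6e-08) and -3.22 for Cyp2a4 (adjusted p = 4.34e-07). The remaining members, Cyp2a12 and Cyp2a22, lay close to WT chow.

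Among 7 Cyp3a genes, whose products oxidise a wide range of drugs, bile acids and steroids, 3 fell. Cyp3a11, the major adult member, read 9.70, 9.41 and 9.45 in KO HFD, against 11.70, 11.60 and 11.37 in WT chow, a difference of -2.03 ± 0.15 (adjusted p = 4.02e-05). Cyp3a44 read 4.39, 4.07 and 4.13, against 7.40, 7.02 and 6.92 in WT chow, a difference of -2.92 ± 0.18 (adjusted p = 9.51e-06). The KO HFD signal of Cyp3a44 lay at or below that of Xist, a transcript that male liver does not make and that read 4.21 to 4.76 here, so the size of that fall is less certain. Cyp3a59 read 7.56, 7.30 and 7.34, against 10.13, 8.92 and 8.90 in WT chow (-1.92 ± 0.25, adjusted p = 0.00815). In WT HFD Cyp3a11 and Cyp3a44 were also below WT chow, by -1.10 (adjusted p = 0.0011) and -1.46 (adjusted p = 0.000748), and KO HFD stood below WT HFD in turn, by -0.93 (adjusted p = 0.00183) and -1.46 (adjusted p = 0.00044).

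Carboxylesterases hydrolyse ester drugs, retinyl esters and lipids, and of 18 Ces genes 5 fell and 1 rose. These families were gathered by symbol after their values were seen. Ces2a read 10.77, 10.57 and 10.58 in KO HFD, against 12.24, 11.71 and 12.01 in WT chow (-1.35 ± 0.13, adjusted p = 0.000928). Ces1e read 9.17, 8.62 and 8.84, against 9.98 to 10.08 on the WT chow arrays (-1.15 ± 0.13, adjusted p = 0.00201). Ces1b (-1.06 ± 0.15, adjusted p = 0.0141), Ces1d (-0.94 ± 0.10, adjusted p = 0.00154) and Ces2e (-0.81 ± 0.14, adjusted p = 0.0411) also fell, with no overlap between the arrays. Ces4a went the other way at 7.72, 7.70 and 7.96 in KO HFD, against 6.58, 6.77 and 6.71 in WT chow, a rise of 1.11 ± 0.12 (adjusted p = 0.00201). In WT HFD Ces4a was within 0.04 of WT chow (adjusted p = 0.916) and KO HFD exceeded WT HFD by 1.15 (adjusted p = 0.000159). The widest interval was that of Ces1g, a triglyceride hydrolase, at 8.80, 10.14 and 9.80 in KO HFD, against 11.09, 11.51 and 11.46 in WT chow (-1.77, interval -2.78 to -0.76, adjusted p = 0.205). Ces2e was not called without 10 of the 12 arrays in turn (adjusted p up to 0.154, without WT chow replicate 3), and Ces1b without KO HFD replicate 3, WT chow replicate 1 or WT chow replicate 3 (up to 0.0687).

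Glutathione S-transferases join glutathione to reactive compounds, and 5 of 18 Gst genes fell while none rose. Lower on every KO HFD array than on any WT chow array were 11 of the 18, against 1449 of all 22180 genes. Gstm3 read 7.69, 6.65 and 6.87 in KO HFD, against 9.93, 9.13 and 9.41 in WT chow (-2.42 ± 0.35, adjusted p = 0.0141). Gsta4, which acts on the lipid peroxidation product 4-hydroxynonenal, read 9.36, 9.25 and 8.74, against 10.56, 10.58 and 10.44 (-1.41 ± 0.15, adjusted p = 0.002). Gstm6 (-1.0 ± 0.18, adjusted p = 0.0445), Gsta3 (-0.76 ± 0.13, adjusted p = 0.0372) and Gstm1 (-0.68 ± 0.11, adjusted p = 0.023) were the others. All 5 were also below WT HFD, by -3.11 for Gstm3, -1.41 for Gsta4, -0.90 for Gstm6, -1.38 for Gsta3 and -0.83 for Gstm1, with adjusted p of at most 0.00812. Gsta4 was called in every fit with 1 array left out; Gstm3 and Gstm1 were lost without 4 arrays each (up to 0.0695, without KO HFD replicate 3, and up to 0.107, without WT chow replicate 3), Gsta3 without 8 and Gstm6 without 11 (up to 0.153, without WT chow replicate 3, and up to 0.172, without KO HFD replicate 3).

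**Figure D2:**
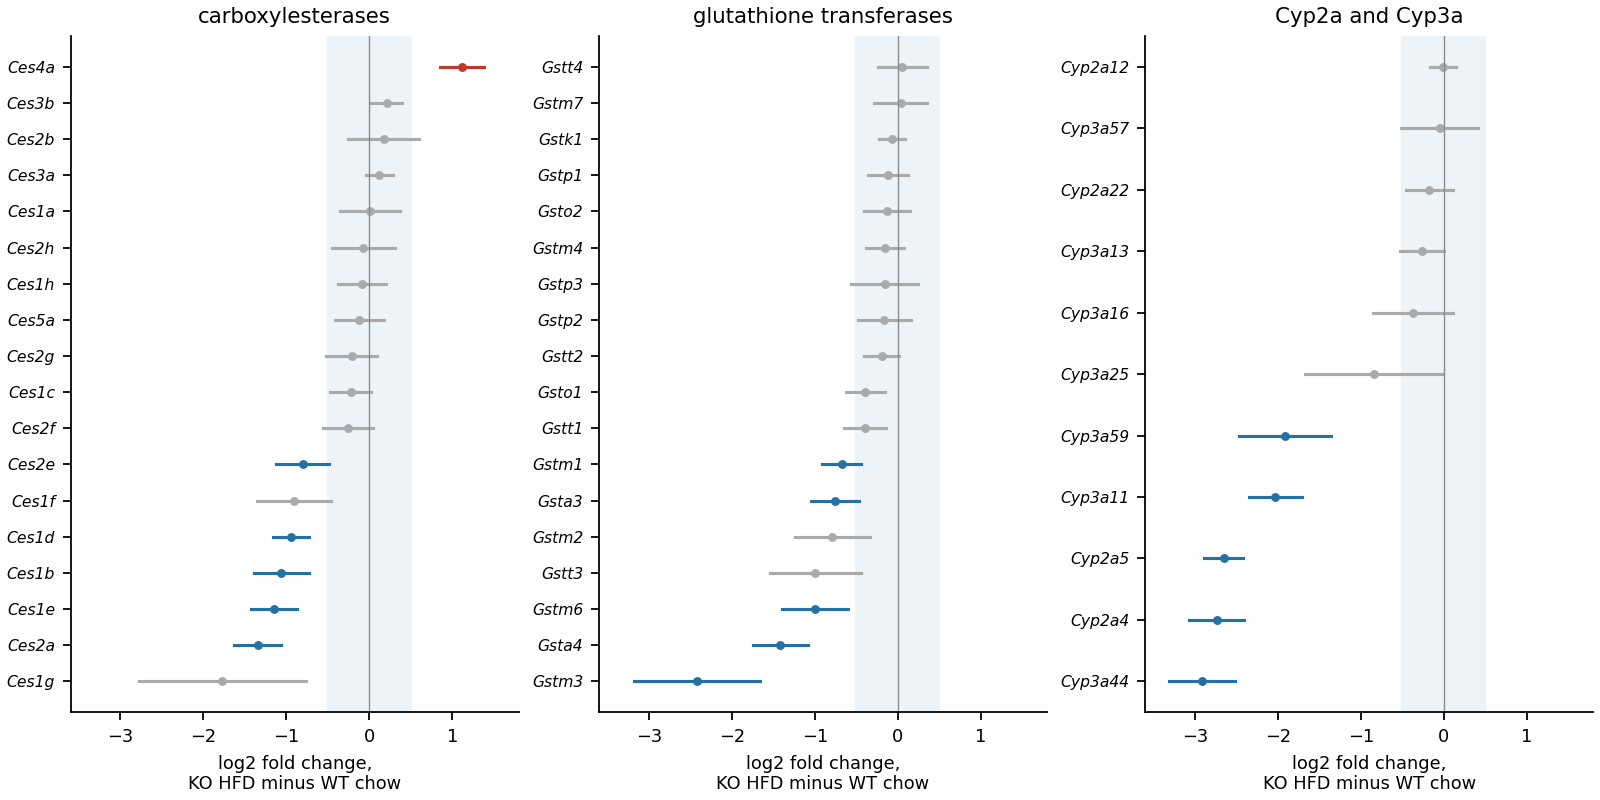
Points are log2 fold changes of KO HFD minus WT chow for each measured carboxylesterase, glutathione transferase and CYP2A or CYP3A gene, lines are 95% intervals, red marks genes called higher, blue genes called lower and grey the others; the shaded band is -0.5 to 0.5. Ces4a at 1.11 is the one red point, and the blue points reach -2.92 at Cyp3a44.

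These enzymes belong to wider target lists. Of 18 measured genes induced through CAR, PXR or AhR, receptors that sense foreign compounds, 4 were lower (Cyp2a5, Cyp3a11, Ces2a and Cyp2c29) and none higher, with a list median of -0.33 beside -0.0018 over all genes, and 6 lay close to WT chow. Cyp2c29 read 12.62, 11.99 and 12.16 in KO HFD, against 12.97, 13.24 and 13.36 in WT chow (-0.93 ± 0.15, adjusted p = 0.0206, not called without KO HFD replicate 2 or 3 or WT chow replicate 2 or 3, up to 0.107). The CAR target Cyp2b10 read 5.43, 4.55 and 4.83 in KO HFD, against 6.84, 5.08 and 5.43 in WT chow, with overlap (adjusted p = 0.64). The AhR target Cyp1a2 read 12.29, 11.98 and 12.07, against 12.13, 12.52 and 12.53 (adjusted p = 0.558). For WT HFD minus WT chow 3 members of the list were higher and 3 lower.

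Of 19 measured targets of NRF2, the factor that induces antioxidant and glutathione enzymes, 5 were lower and none higher (median -0.38). All 5 are the transferases named above. Nqo1, a quinone reductase, read 6.92, 6.89 and 6.95 in KO HFD, against 7.62, 7.43 and 7.48 in WT chow, without overlap (-0.59 ± 0.14, adjusted p = 0.135). Gclc, the catalytic subunit for glutathione synthesis, read 11.28, 11.17 and 11.40, against 11.61, 11.90 and 11.94, also without overlap (-0.53 ± 0.11, adjusted p = 0.0969). Srxn1, which repairs oxidised peroxiredoxins, was close to WT chow (0.07, interval -0.15 to 0.30). Below WT HFD stood 10 of the 19, and none was above it at this threshold by limma, while WT HFD minus WT chow had 3 higher.

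Lists of genes that differ between male and female mouse liver held the largest changes in both directions. The lists were chosen with earlier results of these data known, so this is a description and not a test. Of 25 male-biased genes 2 were higher and none lower (median 0.10), and of 19 female-biased genes 3 were lower and none higher (median -0.23). At an unadjusted p under 0.05 by limma, 5 male-biased genes were higher and 2 lower, and 1 female-biased gene was higher and 6 lower. Members ran from -0.74 to 4.81 in the male-biased list and from -2.93 to 1.29 in the female-biased list. Moxd1, a monooxygenase with a male bias, read 8.69, 10.13 and 9.82 in KO HFD, against 4.96, 4.55 and 4.69 in WT chow, a rise of 4.81 ± 0.29 (adjusted p = 7.46e-06). It read 4.46 to 4.96 in KO chow and 4.68 to 4.89 in WT HFD, near the signal of Xist, so the size of the rise is less certain. Selenbp2, a selenium-binding protein, read 12.06, 12.36 and 11.81, against 10.31, 10.37 and 10.66 in WT chow (1.63 ± 0.28, adjusted p = 0.0365), but was not called without 10 of the 12 arrays (up to 0.127, without KO HFD replicate 2). Its neighbour in sequence Selenbp1, not male-biased in the list, was close to WT chow (-0.03, interval -0.27 to 0.20).

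The female-biased genes that fell were Cyp3a44 and Cyp2a4, given above, and Hamp2, a relative of the iron hormone hepcidin. Hamp2 read 6.74, 7.18 and 6.42 in KO HFD, against 9.02, 9.33 and 9.31 in WT chow (-2.44 ± 0.33, adjusted p = 0.00821, and 0.0516 without KO HFD replicate 3). It read 11.32, 11.13 and 11.67 in WT HFD, 4.59 above KO HFD (adjusted p = 7.52e-06). Hamp, hepcidin itself, read 13.31, 13.40 and 13.18, against 13.57, 13.53 and 13.49 in WT chow, and lay close (-0.23, interval -0.44 to -0.03, adjusted p = 0.482). Cyp2b9, a strongly female-biased P450, read 6.18, 4.39 and 3.98 in KO HFD, against 7.69, 8.88 and 6.75 in WT chow. Its arrays did not overlap, but with a SE of 0.94 it was not called (-2.93, adjusted p = 0.342), while WT HFD stood at 13.17 to 13.40 and KO HFD lay 8.44 below it (adjusted p = 0.000197). The KO HFD signals of 4.39 and 3.98 lay near or below that of Xist, so the size of these differences is less certain.

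Of the male-biased genes 11 of 25 (44.0%) and of the female-biased genes 3 of 19 (15.8%) lay close to WT chow, against 76.3% of all genes, so for most of both lists closeness was not shown. Of the male-biased genes 13 of 25 were lower in WT HFD than in WT chow and 16 of 25 were higher in KO HFD than in WT HFD. C6, a complement component, read 12.29, 12.28 and 12.33 in KO HFD, 10.44, 10.16 and 10.28 in WT HFD and 11.86, 12.09 and 12.08 in WT chow. KO HFD minus WT chow was 0.29 (interval 0.08 to 0.49) and KO HFD minus WT HFD 2.00 (adjusted p = 4.34e-07). Cyp7b1, an oxysterol hydroxylase, read 12.91, 12.82 and 12.82 in KO HFD, 10.24, 9.99 and 10.34 in WT HFD and 12.17, 12.50 and 12.38 in WT chow, so that the KO HFD arrays were above all others, though not called against WT chow (0.51 ± 0.24, adjusted p = 0.579). Socs2, which is not in the male-biased list, is induced by growth hormone and limits its signal. It read 10.99, 11.02 and 10.86 in KO HFD, 8.24, 8.64 and 9.25 in WT HFD and 10.68, 10.55 and 11.13 in WT chow (0.17, interval -0.31 to 0.65). Of these 3 examples C6 alone met the rule for a level close to WT chow.

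The 2 genes called between KO chow and WT chow were both female-biased and were at the WT chow level in KO HFD. Cux2, a transcription factor of female liver, read 6.81, 6.80 and 6.65 in KO HFD, 7.40, 7.62 and 7.56 in KO chow and 6.75, 6.69 and 6.78 in WT chow (KO HFD minus WT chow 0.02, interval -0.18 to 0.21). Fmo2, a flavin monooxygenase, read 8.94, 8.90 and 8.90 in KO HFD, 9.79, 10.58 and 10.25 in KO chow and 9.02, 9.0 and 8.90 in WT chow (-0.06, interval -0.39 to 0.27). KO HFD minus KO chow was -0.77 for Cux2 (adjusted p = 0.00242) and -1.29 for Fmo2 (adjusted p = 0.00265).

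**Figure D3:**
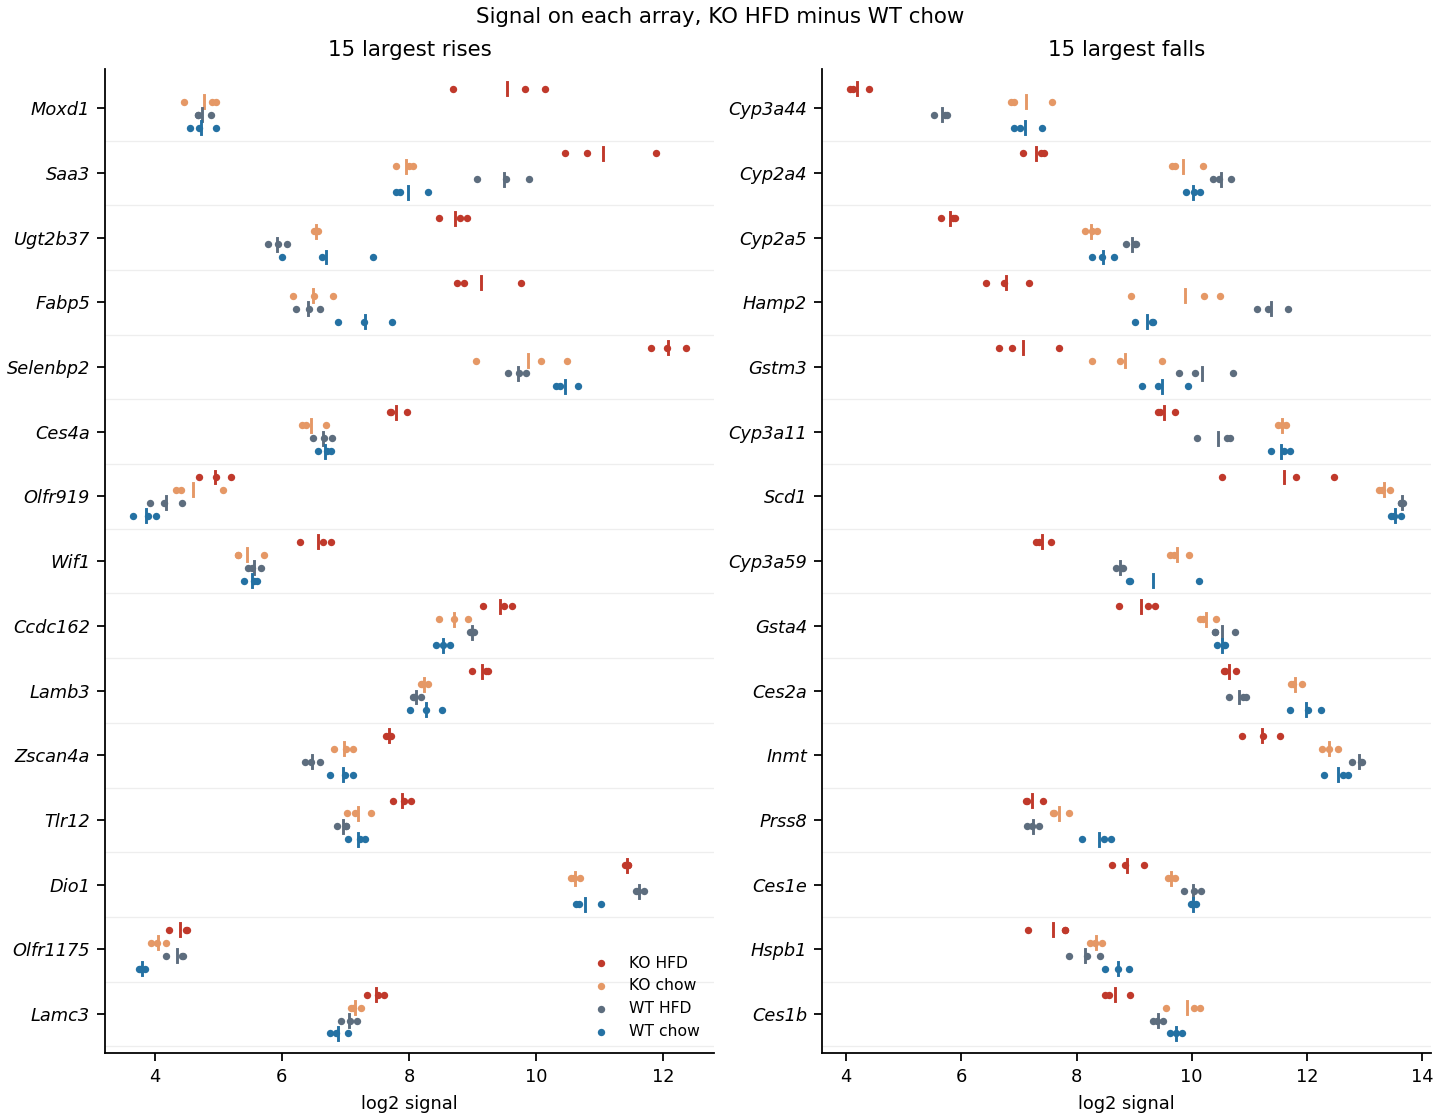
Points are the log2 signals of single arrays for the 15 largest rises (left) and falls (right) of KO HFD minus WT chow among called genes whose arrays did not overlap (gene models and small RNAs left out), short bars are means of 3 mice, and colours give the 4 groups, KO HFD on top in each row. Red points lie clear of the blue points in every row; Dio1, Ces2a and Prss8 are rows in which the dark WT HFD points lie beside the red ones.

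Other large rises included an acute phase gene, a detoxification gene, a fatty acid carrier and a secreted inhibitor. Saa3, an acute phase serum amyloid, read 11.88, 10.45 and 10.80 in KO HFD, against 8.29, 7.79 and 7.85 in WT chow, a rise of 3.06 ± 0.31 (adjusted p = 0.00113). WT HFD lay between them at 9.88, 9.53 and 9.07, and KO HFD exceeded it by 1.55 (adjusted p = 0.0071). Ugt2b37, a glucuronosyltransferase, read 8.47, 8.91 and 8.80, against 7.43, 6.00 and 6.63 in WT chow (2.04 ± 0.26, adjusted p = 0.00768), and was the only one of 7 Ugt2b genes called. Fabp5, a fatty acid carrier of skin, adipose tissue and macrophages, read 9.76, 8.87 and 8.76, against 7.74, 7.29 and 6.88 (1.83 ± 0.27, adjusted p = 0.0161, not called without WT chow replicate 2 or 3, up to 0.0699). In WT HFD Fabp5 read 6.23 to 6.60, 2.71 below KO HFD (adjusted p = 9.29e-05). Wif1, a secreted inhibitor of Wnt signalling, read 6.77, 6.65 and 6.29, against 5.41, 5.61 and 5.56 in WT chow (1.04 ± 0.14, adjusted p = 0.00821).

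Saa3 was the one acute phase gene of 23 that was called. At an unadjusted p under 0.05, 5 of the 23 were higher and 1 lower, against 1998 of all 22180 genes in either direction. Higher on every KO HFD array than on any WT chow array were 5 of the 23, against 1268 of all genes, and 13 of the 23 lay close to WT chow. Saa2, a plasma serum amyloid made by hepatocytes, read 13.15, 9.82 and 12.85 in KO HFD, against 10.33, 8.65 and 10.34 in WT chow, with overlap (2.17 ± 0.78, adjusted p = 0.415). Its second array was the low one in KO HFD, in WT chow and also in KO chow, at 8.58 there. Lcn2, the siderophore binder lipocalin 2, read 10.60, 8.13 and 9.22, against 7.93, 7.38 and 7.72 (1.64 ± 0.43, adjusted p = 0.207), so that all KO HFD arrays were higher but spread over more than 2 log2 units. Orm3, an orosomucoid, was 4.08 above WT chow in WT HFD (adjusted p = 8.4e-05) and 3.48 lower in KO HFD than in WT HFD (adjusted p = 0.000163), while KO HFD minus WT chow was 0.60 (adjusted p = 0.7). Hp and Crp, the abundant haptoglobin and C-reactive protein, were close to WT chow (0.18, interval 0.01 to 0.35, and 0.06, interval -0.10 to 0.22).

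Genes of fatty acid and triglyceride synthesis departed from WT chow downward in 1 of 24 cases and upward in none, with 14 close and a median of -0.07. The gene called was Scd1, the desaturase that makes monounsaturated fatty acids. It read 12.47, 11.81 and 10.52 in KO HFD, against 13.52, 13.63 and 13.46 in WT chow (-1.94 ± 0.34, adjusted p = 0.0391). No array overlapped, but the KO HFD mice spanned nearly 2 log2 units, and the call was lost without 10 of the 12 arrays in turn, controls included (up to 0.121, without WT chow replicate 3). Other enzymes of the path had intervals below 0 without passing: Me1, the cytosolic malic enzyme, was -1.04 (interval -1.51 to -0.58, adjusted p = 0.0827), Fasn, fatty acid synthase, -0.41 (interval -0.72 to -0.10, adjusted p = 0.403), and Srebf1, the insulin-responsive regulator, -0.35 (interval -0.62 to -0.07, adjusted p = 0.426).

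For WT HFD minus WT chow 6 of these 24 genes were higher and 2 lower. Thrsp, a lipogenic protein also called Spot 14, read 6.65, 6.23 and 5.80 in KO HFD, 9.78, 9.74 and 10.35 in WT HFD and 6.73, 6.62 and 6.62 in WT chow. KO HFD stood 3.72 below WT HFD (adjusted p = 7.83e-07) and was not called against WT chow (-0.43, interval -0.86 to 0.00, adjusted p = 0.554). Mogat1, a monoacylglycerol acyltransferase, was close to WT chow at 0.06 (interval -0.38 to 0.50) and 1.58 below WT HFD (adjusted p = 0.000512). Pklr, liver pyruvate kinase, was 0.00 from WT chow (interval -0.31 to 0.31) and 1.09 below WT HFD (adjusted p = 0.00063).

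Lipid uptake and droplet genes had 1 of 28 called, which was Fabp5, with 15 close and a median of 0.01. Cd36, a fatty acid transporter, read 9.94, 9.69 and 9.75 in KO HFD, 11.94, 12.10 and 12.06 in WT HFD and 10.93, 10.16 and 9.96 in WT chow. Every KO HFD array lay below every WT chow array without a call (-0.56 ± 0.21, adjusted p = 0.446), and KO HFD was 2.24 below WT HFD (adjusted p = 6.12e-05). Cidea, a droplet fusion protein, read 4.84, 5.08 and 4.97 in KO HFD, 6.44, 8.06 and 8.66 in WT HFD and 4.67, 5.15 and 4.88 in WT chow, where its signal was near that of Xist. Plin2, the main droplet coat protein of liver, was close to WT chow at 0.01 (interval -0.15 to 0.16) and 0.45 above WT HFD (adjusted p = 0.00197).

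Fabp4, the fatty acid carrier of adipocytes and macrophages, read 11.34, 9.63 and 10.26 in KO HFD, against 9.14, 8.41 and 8.19 in WT chow, without overlap (1.83 ± 0.34, adjusted p = 0.0513). WT HFD read 9.58 to 9.75. Cidec, another droplet protein, read 10.94, 11.80 and 12.00 in KO HFD, against 11.39, 9.94 and 9.68 in WT chow, with overlap (1.24 ± 0.40, adjusted p = 0.345). Since Fabp4 also marks fat tissue, the adipocyte list was read beside it: none of its 10 measured members was called by limma, 1 (Fabp4) had an unadjusted p under 0.05, and list means were 6.59 to 6.90 on the KO HFD arrays and 6.52 to 6.65 on the WT chow arrays. Adipoq, the defining adipocyte hormone adiponectin, read 4.67 to 4.92 in KO HFD and 4.59 to 4.88 in WT chow, near the level of Xist.

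Most fatty acid oxidation genes lay close to WT chow, in shares somewhat above that of all genes. Of 21 mitochondrial and ketogenic genes 18 (85.7%) had their interval within 0.5 of 0, and of 19 peroxisomal and microsomal genes 16 (84.2%), against 76.3% of all genes. No member was called by limma, with 4 of each list at an unadjusted p under 0.05. Ehhadh, the peroxisomal bifunctional enzyme and a target of the fat sensor PPAR-alpha, read 13.27, 13.42 and 13.45 in KO HFD, 12.29, 12.26 and 12.28 in WT HFD and 13.46, 13.37 and 13.27 in WT chow. KO HFD minus WT chow was 0.01 (interval -0.19 to 0.22), and KO HFD minus WT HFD 1.11 (adjusted p = 2.92e-05). Cpt1a, which admits fatty acids to the mitochondrion, differed by 0.20 from WT chow (interval 0.03 to 0.37) and by 0.51 from WT HFD (adjusted p = 0.0016). Ppara, the receptor gene, differed by 0.05 (interval -0.14 to 0.24).

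Some related genes had wide or displaced intervals. Pdk4, the kinase that turns off pyruvate dehydrogenase, read 9.82, 9.19 and 10.09 in KO HFD, against 10.97, 10.70 and 10.94 in WT chow, without overlap (-1.17 ± 0.23, adjusted p = 0.0657), and WT HFD was lower still at 9.0 to 9.24. Abcd2, a peroxisomal transporter and also a female-biased gene, read 8.40, 7.05 and 7.87, against 9.85, 9.01 and 9.44, without overlap (-1.66 ± 0.34, adjusted p = 0.0809). Fgf21, the hormone of fasting and fat adaptation, read 8.36, 8.22 and 9.62 in KO HFD, 6.61, 6.93 and 6.81 in WT HFD and 8.68, 8.04 and 8.34 in WT chow (KO HFD minus WT chow 0.38, interval -0.27 to 1.03).

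**Figure D4:**
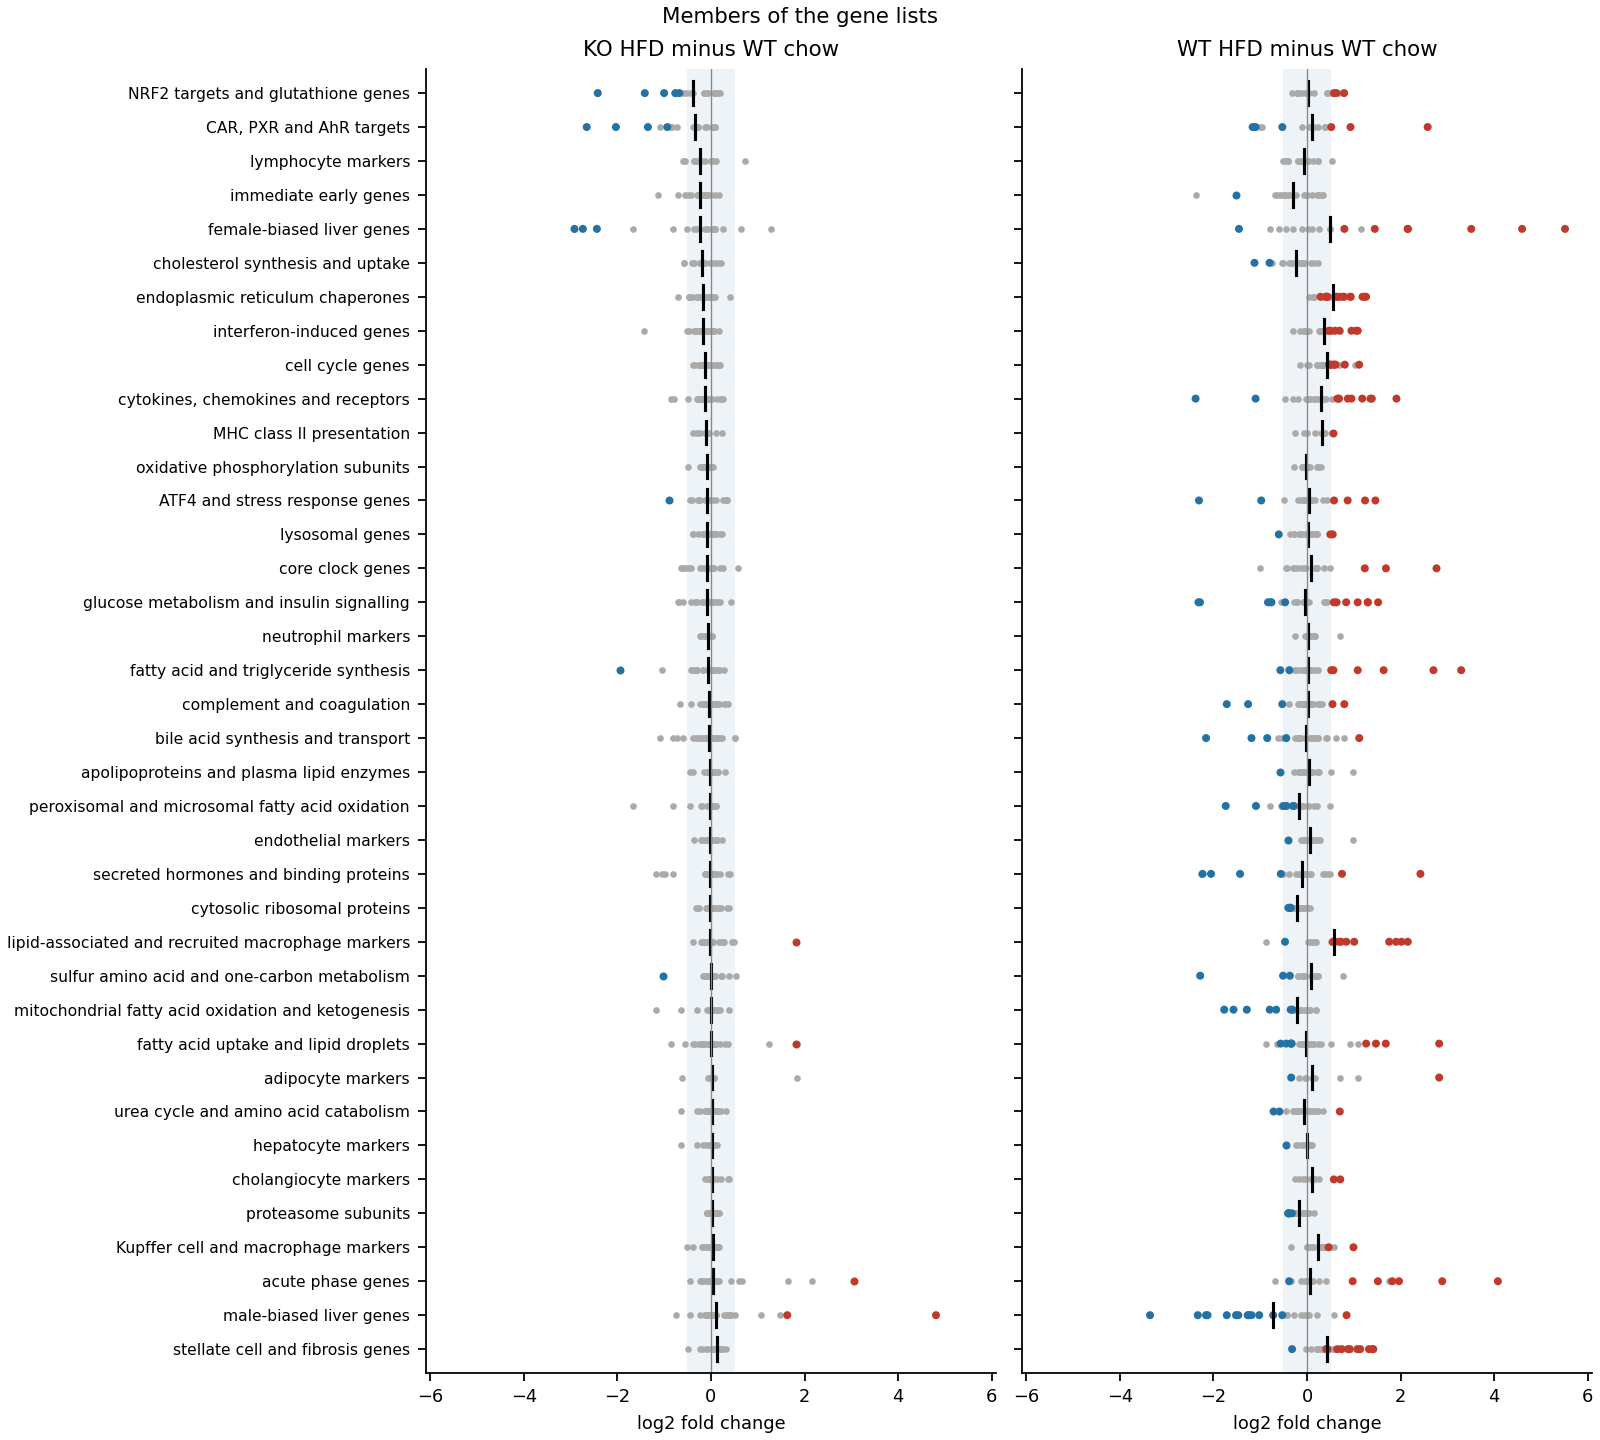
Each row is a gene list and each point a measured member, with the log2 fold change of KO HFD minus WT chow on the left and of WT HFD minus WT chow on the right; red and blue points were called higher and lower, grey points were not called, black ticks are list medians and the shaded band is -0.5 to 0.5. Both panels share the WT chow arrays. In 28 of the 38 rows of the left panel no point is coloured.

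Of the secreted hormone genes 14 of 22 (63.6%) and of the glucose metabolism genes 15 of 24 (62.5%) lay close to WT chow, against 76.3% of all genes. None of 22 secreted hormone and binding protein genes and none of 24 glucose metabolism genes was called by limma, with 4 of each at an unadjusted p under 0.05. Igfbp2 read 11.95, 12.16 and 12.11 in KO HFD, 10.32, 9.99 and 9.85 in WT HFD and 12.20, 12.15 and 11.98 in WT chow. This binding protein of insulin-like growth factors was close to WT chow (-0.03, interval -0.29 to 0.22) and 2.02 above WT HFD (adjusted p = 1.63e-06). Igfbp1 read 12.34, 10.93 and 11.83 in KO HFD, 9.59, 9.32 and 9.52 in WT HFD and 12.19, 11.22 and 11.72 in WT chow, with too wide an interval to be called close (-0.67 to 0.65). Irs2, an insulin receptor substrate, differed by -0.30 from WT chow (interval -0.96 to 0.36) and by 1.99 from WT HFD (adjusted p = 0.00148). Pck1 and G6pc, the enzymes of glucose output, were close to WT chow (-0.02, interval -0.18 to 0.14, and -0.10, interval -0.32 to 0.12). Serpina6, the corticosteroid-binding globulin, read 11.96, 11.38 and 11.15, against 12.31, 12.77 and 12.56 in WT chow, without overlap (-1.05 ± 0.20, adjusted p = 0.0577).

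In bile acid synthesis none of 27 genes was called by limma (8 at an unadjusted p under 0.05), and 17 lay close. Cyp7a1, the rate-limiting enzyme, read 12.21, 11.89 and 12.30 in KO HFD, against 11.23, 12.10 and 11.50 in WT chow, with overlap (0.52, interval 0.00 to 1.04 to the rounding, adjusted p = 0.557). Cyp8b1, which makes cholic acid, was close at 0.11 (interval -0.12 to 0.34) and 0.96 above WT HFD (adjusted p = 0.000193). Akr1d1, the steroid 5-beta-reductase, read 9.41, 8.22 and 8.36, against 9.82, 9.78 and 9.62, without overlap (-1.08 ± 0.24, adjusted p = 0.107). Of 19 cholesterol synthesis and uptake genes none was called, 2 had an unadjusted p under 0.05 and 7 lay close. Csad, the decarboxylase of taurine synthesis, read 10.56, 10.35 and 10.46 in KO HFD, 9.50, 8.77 and 9.31 in WT HFD and 11.43, 11.43 and 11.57 in WT chow. In KO chow it read 10.79, 10.39 and 10.57. KO HFD minus KO chow was -0.12 (limma adjusted p = 0.887), and KO chow minus WT chow -0.89 (adjusted p = 0.141). KO HFD was 1.02 ± 0.16 below WT chow (adjusted p = 0.0239, up to 0.113 without WT chow replicate 3, and lost without 5 arrays). It was 1.27 above WT HFD (adjusted p = 0.000522). Of 21 genes of sulfur and one-carbon metabolism Csad was the one called, with 18 close.

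In each of 4 inflammatory cell and matrix lists the share shown to be close to WT chow in KO HFD was below the 76.3% of all genes. It was 66.7% of stellate cell and fibrosis genes, 52.6% of lipid-associated macrophage markers, 66.7% of Kupffer cell markers and 37.0% of cytokine genes. Of 30 stellate cell and fibrosis genes 12 were higher and 1 lower for WT HFD minus WT chow; for KO HFD minus WT chow none was called by limma, 3 had an unadjusted p under 0.05 and 20 lay close (median 0.13, with list means of 7.44 to 7.63 in KO HFD and 7.35 to 7.52 in WT chow). Col3a1, a fibrillar collagen, read 6.87, 7.20 and 6.81 in KO HFD, 8.52, 8.09 and 7.99 in WT HFD and 6.83, 7.0 and 6.80 in WT chow (KO HFD minus WT chow 0.08, interval -0.22 to 0.38; KO HFD minus WT HFD -1.24, adjusted p = 0.000205). Timp1, an inhibitor of matrix proteases, was 0.12 from WT chow (interval -0.25 to 0.49) and 1.29 below WT HFD (adjusted p = 0.000632). Col1a1, the main fibril collagen, read 7.35, 7.58 and 7.30 in KO HFD, above all WT chow arrays at 7.16, 7.24 and 6.89, without a call (0.31, interval 0.02 to 0.61, adjusted p = 0.53), while WT HFD read 8.25 to 8.77. Lrat, the retinol esterifier of stellate cells, was below WT chow on every array without a call (-0.49 ± 0.10, adjusted p = 0.0817).

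Of 19 markers of lipid-associated and recruited macrophages, 11 were higher in WT HFD than in WT chow, while 1 was higher in KO HFD than in WT chow (Fabp5) and 10 lay close. List means were 7.10 to 7.15 on the KO HFD arrays, 7.57 to 7.77 on the WT HFD arrays and 6.90 to 7.14 on the WT chow arrays. Mmp12, macrophage elastase, read 5.91, 6.09 and 5.96 in KO HFD, 8.03, 7.66 and 7.46 in WT HFD and 5.82, 5.60 and 5.68 in WT chow. It was above every WT chow array without a call (0.29, interval 0.00 to 0.58 to the rounding, adjusted p = 0.558), and 1.73 below WT HFD (adjusted p = 1.39e-05). Gpnmb (0.49, interval 0.03 to 0.96) and Trem2 (0.22, interval -0.13 to 0.56), surface proteins of these cells, were 1.41 and 0.79 below WT HFD (adjusted p = 0.00146 and 0.00789). Of 21 Kupffer cell and macrophage markers none was called (1 at an unadjusted p under 0.05) and 14 lay close, among them Clec4f, the defining Kupffer cell lectin (0.14, interval -0.14 to 0.41). Ccl2, the monocyte attractant, read 6.14, 6.36 and 6.31 in KO HFD, 7.76, 7.55 and 7.36 in WT HFD and 6.78, 6.31 and 6.04 in WT chow (-0.10, interval -0.56 to 0.35). Of 27 cytokines, chemokines and receptors none was called by limma, 3 had an unadjusted p under 0.05 and 10 lay close.

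Lgals1, the gene of galectin-1, an immunomodulatory lectin, was among the calls on the low side. It read 8.36, 8.76 and 8.07 in KO HFD, 11.68, 11.78 and 11.88 in WT HFD and 9.18, 9.37 and 9.47 in WT chow. KO HFD was 0.94 ± 0.17 below WT chow (adjusted p = 0.0395), a call lost without 10 of the 12 arrays (up to 0.159, without WT chow replicate 3), and 3.38 below WT HFD (adjusted p = 6.03e-07).

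Endoplasmic reticulum chaperones, cell cycle genes and interferon-induced genes were counted in the same way. Of 22 chaperones 15 were higher in WT HFD than in WT chow; in KO HFD none was called by limma against WT chow, 7 had an unadjusted p under 0.05, all lower, and 11 lay close (median -0.16). Creld2, a chaperone-associated protein, read 9.92, 9.88 and 10.18 in KO HFD, 11.60, 11.99 and 12.04 in WT HFD and 10.34, 10.86 and 10.88 in WT chow, below WT chow on every array (-0.70 ± 0.16, adjusted p = 0.131). Of 29 cell cycle genes 8 were higher in WT HFD, none was called in KO HFD against WT chow (2 at an unadjusted p under 0.05) and 20 lay close. Mki67, the proliferation marker Ki-67, read 5.75, 5.71 and 6.00 in KO HFD, 6.68, 6.75 and 6.55 in WT HFD and 6.08, 5.90 and 6.17 in WT chow (-0.23, interval -0.46 to 0.00). Of 26 interferon-induced genes 7 were higher in WT HFD, none was called in KO HFD against WT chow (5 at an unadjusted p under 0.05) and 13 lay close. Bst2, the membrane tether tetherin, read 7.33, 9.07 and 7.64 in KO HFD, against 9.44, 9.47 and 9.40 in WT chow, without overlap (-1.43 ± 0.36, adjusted p = 0.187).

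**Figure D5:**
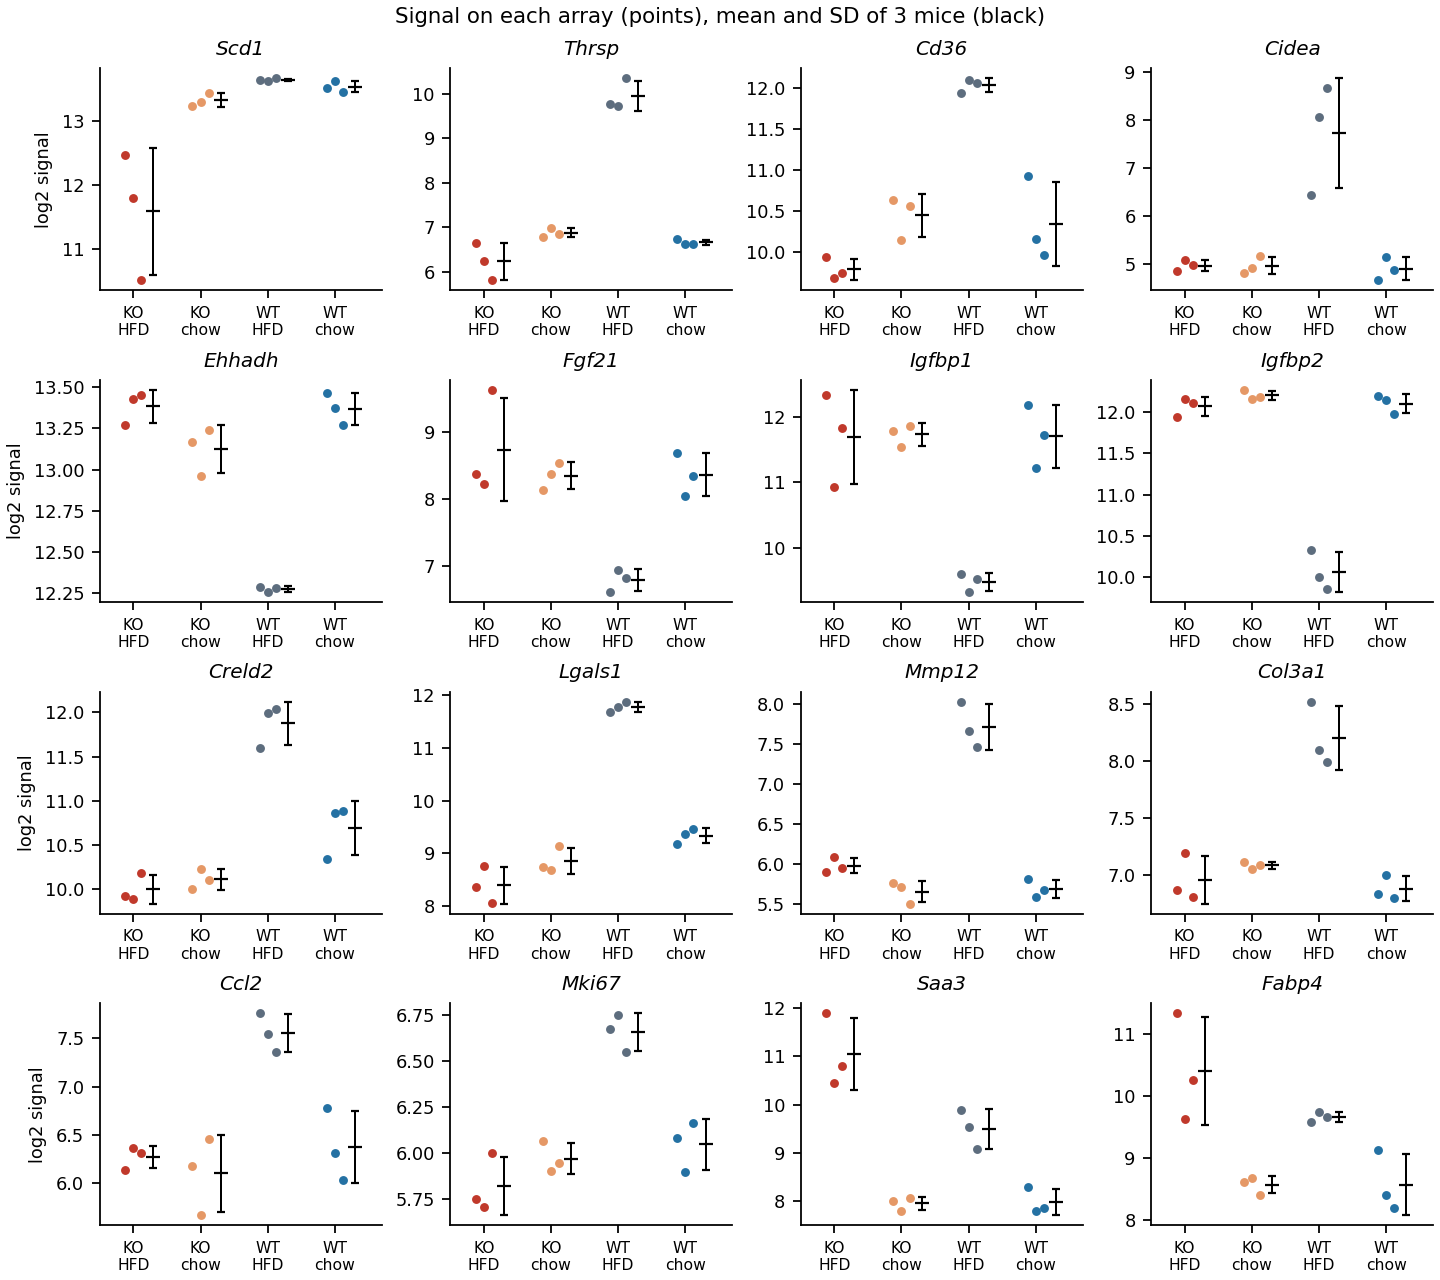
Log2 signals of 16 genes of lipid metabolism, hormone secretion, chaperones, inflammation, matrix and proliferation on each array, by group, with the mean and SD of 3 mice in black; each panel has its own vertical axis, which does not start at 0. For Thrsp, Cidea, Ehhadh, Igfbp2, Mmp12 and Col3a1 the WT HFD points stand apart, for Saa3 and Scd1 the KO HFD points do.

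In several lists the share close to WT chow was above the 76.3% of all genes. All 25 measured proteasome subunits and 25 of 26 oxidative phosphorylation subunits had intervals within 0.5 of 0, and 17 of 18 endothelial markers and 20 of 24 ribosomal protein genes did so. None of these was called by limma; 0, 2, 1 and 2 members in that order had an unadjusted p under 0.05. Below that share, 4 of 18 core clock genes and 4 of 20 immediate early genes lay close, with none called (4 and 3 at an unadjusted p under 0.05). The WT chow mice differed among themselves there: Arntl, the clock activator BMAL1, read 8.97, 8.95 and 8.90 in KO HFD, against 9.68, 8.10 and 8.82 in WT chow, and Jun, an immediate early factor, 9.94, 9.99 and 9.79, against 10.56, 9.19 and 11.28. For these genes neither a difference nor a match was shown, and the hour at which livers were taken is not given in the labels.

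A few genes departed from WT chow in KO HFD and stood beside WT HFD. Ces2a, given above, was within 0.18 of WT HFD (interval -0.47 to 0.10, adjusted p = 0.439) and 1.16 lower in WT HFD than in WT chow (adjusted p = 0.000384). Prss8, the membrane protease prostasin, read 7.14, 7.42 and 7.12 in KO HFD, 7.14, 7.23 and 7.35 in WT HFD and 8.61, 8.09 and 8.48 in WT chow (KO HFD minus WT chow -1.17 ± 0.14, adjusted p = 0.00375; KO HFD minus WT HFD -0.02, interval -0.32 to 0.29). Dio1, the deiodinase that activates thyroid hormone, read 11.44, 11.40 and 11.44 in KO HFD, 11.59, 11.57 and 11.69 in WT HFD and 10.63, 10.68 and 11.01 in WT chow (0.66 ± 0.10, adjusted p = 0.0206; KO HFD minus WT HFD -0.19, interval -0.41 to 0.03). Pir, an iron-binding nuclear protein, read 8.56, 8.51 and 8.77 in KO HFD, 8.54, 8.58 and 8.63 in WT HFD and 9.29, 9.17 and 9.15 in WT chow (-0.59 ± 0.09, adjusted p = 0.0161; KO HFD minus WT HFD 0.03, interval -0.15 to 0.22). Ces2a and Prss8 were called in every fit with 1 array left out, Pir was lost without KO HFD replicate 2 or WT chow replicate 1 (up to 0.058) and Dio1 without 5 arrays (up to 0.0871, without WT chow replicate 2).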

How the data were processed

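Liver RNA from 12 mice, 3 in each of 4 groups, was measured on Affymetrix arrays, 1 mouse per array. The values are log2 signals per probe set as deposited by the authors, for which the submitters' processing notes name the R package oligo; the version, background correction and normalization were not given there. There were 41345 probe sets with no missing value, from 1.40 to 14.36, with array medians of 5.58 to 5.70. They were used without further normalization. Through the platform annotation 23521 probe sets had 1 symbol, 1814 several and 16010 none; only the first kind was used, and of a gene with several probe sets (1082 genes) the one with the highest mean signal was taken, which left 22180 genes.

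All 4 groups were fitted together with limma 3.58.1 (lmFit and eBayes, R 4.3.3), with Benjamini-Hochberg adjustment over all genes for each contrast; every adjusted p in the text comes from this fit unless another setting is named. Intervals are 95% intervals for single genes, without adjustment. On simulated data with 22180 genes on the same design, 34.3% of genes changed by 0.5 log2 units were called, 92.5% of those changed by 1 and 98.5% of those changed by 2, with 5 of 21980 unchanged genes called. The simulation gave each gene the same normal spread in all 4 groups. In the data the spread could differ by group, as for Scd1 (SD 0.99 in KO HFD, 0.02 in WT HFD), so these rates need not hold there. The number of arrays limits the precision: the median SE of a difference was 0.12 log2 units.

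Groups were taken from the sample titles. The genes and lists were chosen with earlier results of these data known, and the symbol families after their values were seen. Most genes were named by rule: the 15 largest rises and 15 largest falls among called genes whose arrays did not overlap (gene models, clones, small RNAs and RIKEN names left out), the list members with the smallest p, list members used as examples, and a set of metabolic, inflammatory and clock genes. Some members of the symbol families, and Pir, Socs2, Cyp26a1, Rdh11, Maoa, Vegfb, Tuba8 and Slco2a1, were named outside this rule. Lists held 852 genes, of which 766 were measured; the others were not analysed here. Alternatives were other variance models, normalizations, filters, probe set rules, a replicate block, the 6 arrays alone and each array left out. Replicate numbers showed no pairing of the arrays across all genes: deviations of same-numbered arrays from their group means correlated at -0.06 to 0.08 in 18 pairs of arrays. A pairing that acts on few genes would not be seen in this way.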

Additional observations from a re-analysis of the deposited data

How the results depend on the processing

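The counts of genes higher (18) and lower (53) in KO HFD than in WT chow moved with how the spread was estimated, always with more lower than higher. With the replicate block they were 9 and 26, while across all genes no pairing by number was seen (r of -0.06 to 0.08 for equal numbers, -0.13 to 0.16 for others). With a variance trend and robust estimation they were 28 and 103, with only the 6 arrays compared 4 and 16, without the WT HFD group (chosen after seeing the data) 6 and 22, and at a change of at least 2-fold 8 and 18. Restricting the test to genes above the median signal gave 104 lower genes, and 9438 genes with an interval within 0.5 of 0, from fewer genes tested. Leaving out 1 array at a time gave 6 to 18 higher genes, 22 to 58 lower genes and 14684 to 16900 genes within the band. Array weights, quantile normalization, median centring, the mean of probe sets and every probe set by itself kept these counts within 1.5 times. Direction was checked in all of these settings but every probe set by itself, and none of the 71 genes changed it. Leaving out or weighting arrays could not change it, since the compared arrays of these genes did not overlap. Other variance models left the difference itself as it was. Signals near that of Xist carry little information on size, and a gene outside the band and not called was neither shown to differ nor to match.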

Other observations

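Among the called genes outside the lists were 4 further lower genes, Cyp26a1, Rdh11, Inmt and Maoa, given as single genes. Cyp26a1, which degrades retinoic acid, read 5.31, 5.29 and 5.40 in KO HFD, against 6.43, 6.14 and 6.24 in WT chow (-0.94 ± 0.12 SE, limma adjusted p = 0.00815), and Rdh11, a retinal reductase, read 8.79, 8.44 and 8.66, against 9.20, 9.24 and 9.35 (-0.64 ± 0.10, adjusted p = 0.0248). Inmt, which methylates indoleamines, read 11.53, 11.24 and 10.87, against 12.30, 12.72 and 12.62 (-1.33 ± 0.16, adjusted p = 0.00375), and Maoa, monoamine oxidase A, 6.64, 6.15 and 6.47, against 7.48, 7.20 and 7.30 (-0.90 ± 0.12, adjusted p = 0.00768). The arrays of the compared groups did not overlap for any of these, and Cyp26a1, Inmt and Maoa were called with each array left out in turn, while Rdh11 was lost without 5 (up to 0.116, without WT chow replicate 3). Some of these genes were singled out after their values were seen.

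The angiogenic factor gene Vegfb was lower at 8.87, 8.64 and 8.75 in KO HFD, against 9.46, 9.62 and 9.78 in WT chow (-0.87 ± 0.11, limma adjusted p = 0.00815). Tuba8, an alpha-tubulin, lay between the wild-type groups at 6.65, 6.93 and 6.89 in KO HFD, 6.30, 6.46 and 6.51 in WT HFD and 7.87, 7.96 and 7.79 in WT chow (KO HFD minus WT chow -1.05 ± 0.14, adjusted p = 0.00821). Slco2a1, the prostaglandin transporter, likewise read 10.54, 10.51 and 10.40 in KO HFD, 9.90, 9.54 and 9.74 in WT HFD and 11.10, 11.01 and 11.30 in WT chow (-0.66 ± 0.11, adjusted p = 0.0279, not called without 7 arrays, up to 0.116 without WT chow replicate 3). Of 10 laminin genes, basement membrane subunits gathered by symbol after their values were seen, 2 were higher: Lamb3 at 8.99, 9.25 and 9.21 in KO HFD, against 8.52, 8.27 and 8.01 in WT chow (0.88 ± 0.12, adjusted p = 0.00899, 0.054 without KO HFD replicate 3), and Lamc3 at 7.51, 7.61 and 7.34, against 7.05, 6.76 and 6.85 (0.60 ± 0.11, adjusted p = 0.0392, up to 0.153 without WT chow replicate 3 and lost without 11 arrays).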
